A study of Solanum lycopersicum with 95 samples.

Results

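The leaves described here are those of tomato (Solanum lycopersicum, cultivar Foundation, a commercial cluster tomato hybrid) sampled 6 h after far-red light was first added over the vegetative organs. They were chosen by their labels: 8 of the 95 libraries of the series, 4 from Leaf FR plants and 4 from No FR plants. Leaf FR plants received 77 µmol m-2 s-1 of far-red from above, on leaves, stem and apex, on top of red and white light with a photon flux density of 258 µmol m-2 s-1, while their fruits stayed behind a light-tight curtain. No FR plants received the same red and white light without far-red. Plants of both treatments had grown under red and white light alone until the start, and all libraries of the time point were taken within minutes of each other. Each library was 1 leaflet of the leaf above the second truss, each from a different plant. The question was how an illuminated leaf itself responds within its first afternoon. The other libraries of the series were leaves and fruits of both treatments at 0, 6, 12, 24, 48 and 96 h.

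Plants sense far-red through phytochromes, photoreceptors that are switched on by red light and switched off by far-red. When phytochrome is switched off, growth-promoting transcription factors become active and raise auxin synthesis and auxin transport genes, the core of the shade response. Cytokinin, which promotes cell division in leaves, is counteracted by enzymes that break it down or store it as a glucoside, and gibberellin promotes stem and petiole elongation.

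The libraries held 15317354 to 16756826 counts in Leaf FR leaves and 15566052 to 16229577 in No FR leaves. Of the 34075 genes in the table, 18085 were tested, those that reached 10 counts in 3 or more of the 8 libraries. Levels are given as CPM, the share of a library's counts scaled by library size and composition, and Log2FC is the log2 of the Leaf FR level over the No FR level. The biological coefficient of variation, the typical spread between plants, was 33.8% in these leaves and 14.0% in fruits of the same hour. Expression was measured on whole leaflets, so a change in the share of a cell type and a change of RNA per cell cannot be told apart. The tables pair gene IDs with no names, and none of them matched the reference at hand (0 of 34075). Genes are therefore called by ID, except those the study itself names, and leaf cell type markers were not checked.

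Added far-red mostly raised transcripts. Of the genes tested, 66 were differentially expressed (DEGs, adjusted P under 0.05 by edgeR's quasi-likelihood test), a share of 0.365%. Of these, 58 were upregulated in Leaf FR (0.321%) and 8 downregulated (0.0442%). Among the upregulated genes called, 22 of the 58 had a Log2FC over 3 and 11 one between 2 and 3. Another 23 had one between 1 and 2, and 2 one below 1. The median Log2FC was 2.42 for the upregulated genes and -1.27 for the downregulated ones, against 0.01 over all genes tested. Large changes pass the threshold more readily than small ones, so these sizes partly follow from the call. A Log2FC above 1 or below -1 was reached by 63 of the 66 DEGs. With the DESeq2 Wald test it was reached by 357 of 510. Before adjustment, 1611 genes had a P under 0.05, of which 1081 were higher and 530 lower in Leaf FR.

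**Figure D1:**
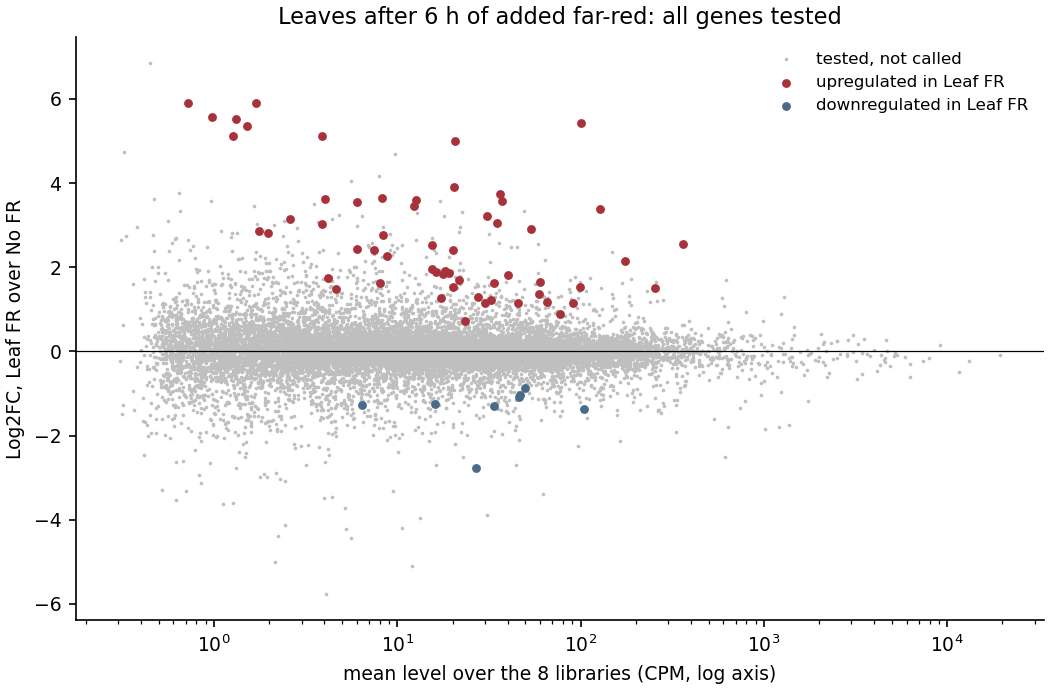
Log2FC of every gene tested in leaves at 6 h (Leaf FR over No FR) against its mean level over the 8 libraries in CPM, on a log axis. Red points are the 58 upregulated genes, blue points the 8 downregulated genes and grey points genes that did not pass the threshold; the red points reach a Log2FC of 5.91, while the lowest blue point lies at -2.78.

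Most of the upregulated genes were weakly expressed without far-red. A gene counted in 1 treatment only could pass the filter on low counts, and some of these genes entered the test through their Leaf FR libraries. Their low No FR levels therefore partly follow from the filter and the call. Their median level was 28.9 CPM in Leaf FR and 5.86 CPM in No FR, and 37 of the 58 averaged under 10 CPM in No FR leaves, 13 of them under 1 CPM. The downregulated genes were moderately expressed, with a median of 24.6 CPM in Leaf FR and 55.5 CPM in No FR. Together the 58 upregulated genes took 3584 CPM in Leaf FR and 872 CPM in No FR. In each of the 66 genes the 4 Leaf FR libraries lay wholly above or wholly below the 4 No FR libraries, which held for 5.18% of all genes tested. The 66 were called on these same libraries, so their separation largely follows from the call.

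The genes with the largest rises were close to silent in No FR leaves. Solyc05g008240 had 25, 25, 24 and 19 counts in the Leaf FR libraries, against 1, 0, 0 and 0 in the No FR libraries. The ratio of the summed counts was 87.9, with a 95% counting interval from 15.4 to 3510.0. Solyc01g110180 had 94, 31, 57 and 39 counts in Leaf FR, against 1, 0, 1 and 1 in No FR, a ratio of 69.7 (23.5 to 340.3). Both genes were low but counted in every Leaf FR plant, and gave at most 1 count in any No FR plant. They passed the filter on low counts through their Leaf FR libraries alone. Solyc03g083490 gave a ratio of 59.1 (16.02 to 493) and Solyc05g053530 one of 54.8 (18.5 to 269), but Solyc05g053530 varied more, with 81, 7, 45 and 41 counts in Leaf FR. These intervals are exact binomial ones and cover counting error only.

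Solyc06g062460 combined a very large rise with a high level. It had 290.4, 113, 201 and 184 CPM in Leaf FR leaves, against 0.993, 1.58, 6.60 and 9.01 CPM in No FR leaves, a Log2FC of 5.44 ± 0.72 (SE, n = 4 each, adjusted P = 0.0275). All Leaf FR plants stood more than 10 times above the highest No FR plant. Solyc07g053750 averaged 7.54 ± 2.23 CPM in Leaf FR and 0.209 ± 0.212 CPM in No FR (SD), with a Log2FC of 5.12 ± 0.56. Solyc02g073580 reached 39.9 ± 29.2 CPM in Leaf FR, against 1.23 ± 0.55 CPM in No FR, and was the most uneven among the treated plants, at 25.8, 6.82, 55.1 and 72.0 CPM.

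5 of the DEGs kept their call whichever library was left out. Solyc05g052670 had 79.6, 33.9, 83.0 and 74.3 CPM in Leaf FR, against 5.59, 3.43, 5.77 and 5.53 CPM in No FR (Log2FC 3.73 ± 0.32, SE, adjusted P = 0.00807). Solyc01g090460 had 10.3, 5.47, 7.90 and 6.30 CPM in Leaf FR, against 0.434, 0.618, 0.698 and 0.644 CPM in No FR (Log2FC 3.63 ± 0.29, adjusted P = 0.00807). In both, replicate 2 of Leaf FR was the lowest treated plant and still stood far above every No FR plant. Solyc05g053410 had 65.1, 41.4, 73.5 and 69.1 CPM in Leaf FR, against 4.90, 6.52, 9.51 and 8.94 CPM in No FR (Log2FC 3.06 ± 0.27, adjusted P = 0.00807). Solyc04g005800 averaged 95.1 ± 13.0 CPM in Leaf FR and 12.6 ± 5.01 CPM in No FR (SD, Log2FC 2.91 ± 0.28). Solyc02g078760 averaged 27.7 ± 3.54 CPM in Leaf FR and 7.74 ± 1.52 CPM in No FR (SD), a smaller rise of 1.84 ± 0.18 on the log2 scale.

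**Figure D2:**
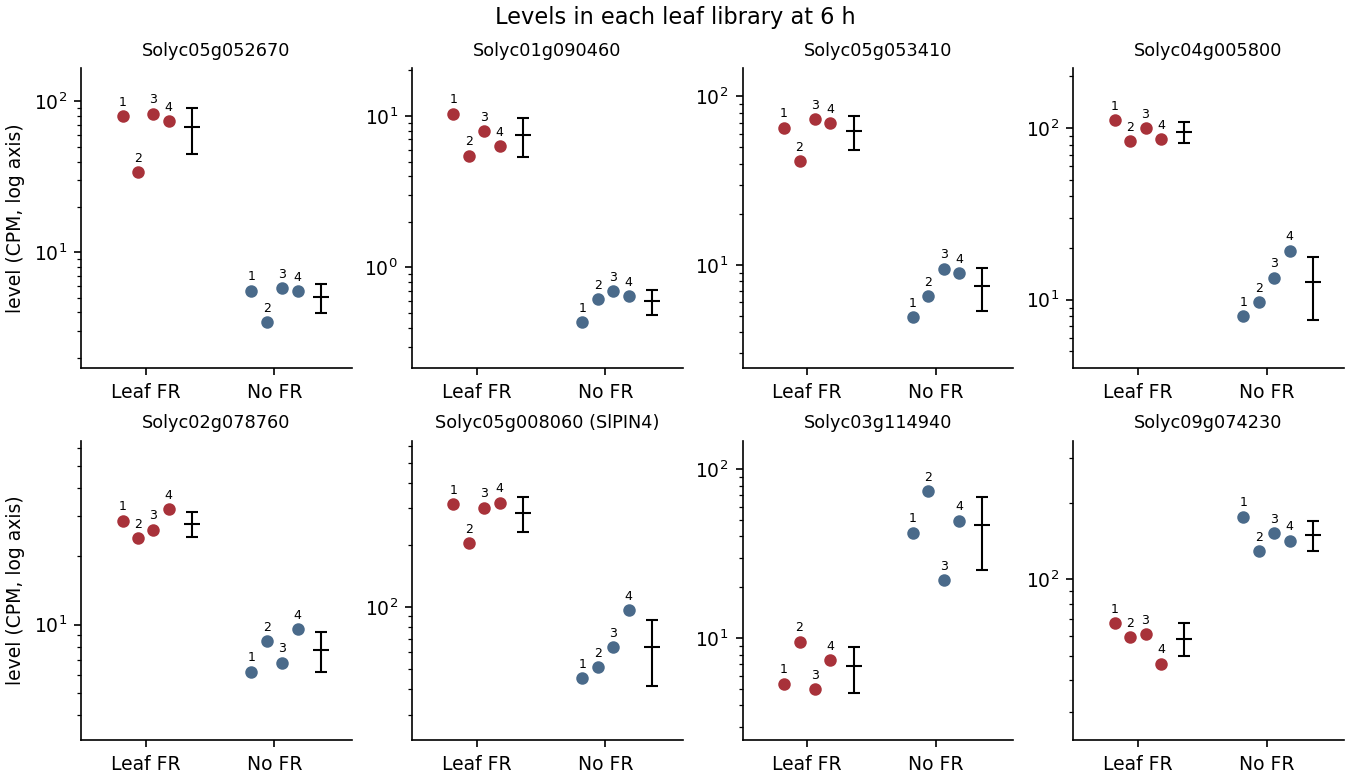
Level of 8 genes in each leaf library at 6 h, in CPM on a log axis, with Leaf FR (red) left of No FR (blue); digits are replicate numbers, and the black bar is the mean ± SD of 4 libraries. The first 5 genes kept their call in every fit with 1 library left out, SlPIN4 had 203 to 321 CPM in Leaf FR and 45.1 to 95.9 CPM in No FR, and the last 2 genes were lower in Leaf FR.

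Among the abundant transcripts, Solyc02g089350 had 485, 503, 614 and 858 CPM in Leaf FR, against 48.0, 91.4, 141 and 139 CPM in No FR (Log2FC 2.55 ± 0.37, SE). Solyc06g060830 had 306, 147, 279 and 196 CPM in Leaf FR, against 13.9, 11.6, 35.8 and 28.4 CPM in No FR (Log2FC 3.37 ± 0.42). Solyc03g113280 varied least of the 3, at 375 ± 32.8 CPM in Leaf FR and 132 ± 30.6 CPM in No FR (SD), 2.83 times as high. In all 3 the lowest Leaf FR plant stood above the highest No FR plant.

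SlPIN4 (Solyc05g008060), an auxin transport gene that the study names, was among the DEGs. The other PIN gene of its list, SlPIN5, was too low to test. PIN proteins export auxin from cells and set the direction of its flow. SlPIN4 had 314, 203, 303 and 321 CPM in Leaf FR, against 45.1, 50.8, 63.7 and 95.9 CPM in No FR (Log2FC 2.16 ± 0.27, SE, adjusted P = 0.0226). Every treated plant stood well above the highest No FR plant, and replicate 2 again was the lowest of Leaf FR. Without Leaf FR replicate 1 the adjusted P was 0.100. Solyc05g053400, which the study names as a zeatin O-glucosyltransferase, an enzyme that stores the cytokinin zeatin as a glucoside, had 23.3, 11.1, 14.4 and 9.09 CPM in Leaf FR, against 0.931, 3.02, 1.52 and 3.02 CPM in No FR. Its Log2FC was 2.77 ± 0.45 (SE) with an adjusted P of 0.0493, close to the threshold, and 0.0518 with robust dispersion estimates. On a scale set over the leaf libraries of 0 and 6 h, Leaf FR plants averaged 11.7 CPM before treatment and 12.0 CPM at 6 h. No FR plants averaged 7.31 ± 7.58 CPM (SD) at 0 h and 1.79 CPM at 6 h. The response at 6 h minus that at 0 h was 2.07 ± 0.80 (SE, edgeR interaction, adjusted P = 0.676). The next gene in ID order after Solyc05g053400, Solyc05g053410, is among the 5 genes above.

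The 8 downregulated genes changed less at the median, though not each of them. Solyc03g114940 had 5.36, 9.52, 4.98 and 7.40 CPM in Leaf FR, against 42.0, 74.0, 22.1 and 49.5 CPM in No FR (Log2FC -2.78 ± 0.38, SE, adjusted P = 0.0294). Solyc09g074230 was the most abundant of them, at 67.3, 59.1, 61.0 and 46.5 CPM in Leaf FR, against 176, 129, 152 and 142 CPM in No FR (Log2FC -1.36 ± 0.16). Both were separated by a wide gap between treatments. The other 6 genes had Log2FC between -1.29 (Solyc06g008920) and -0.86 (Solyc02g080410), and none of these 6 was called in 1 fit over all leaf libraries.

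The number of DEGs rested strongly on single libraries. Leaving out Leaf FR replicate 1, 3 or 4 left 8, 10 and 8 DEGs, and leaving out No FR replicate 1, 2 or 3 left 5, 19 and 14. Without Leaf FR replicate 2 there were 108, and without No FR replicate 4 there were 126. Leaf FR replicate 2 had the lowest Leaf FR level in 41 of the 58 upregulated genes and No FR replicate 4 the highest No FR level in 35 of them. The 10 most abundant genes took 11.3% of the counts in Leaf FR replicate 2 and 11.1% in No FR replicate 2, against 8.04% to 9.72% in the other 6 libraries. The part of these library differences in the results was not tested. The 5 genes named above kept their call in all 8 of these fits, and the other 61 DEGs lost it in at least 1. Only 8 of the 66 DEGs were called in 7 or 8 of these fits. The direction was the same for all 66 DEGs in every alternative fit. The DESeq2 Wald test called 510 genes, among them all 66. DESeq2 was also the tool with which the study called its DEGs.

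**Figure D3:**
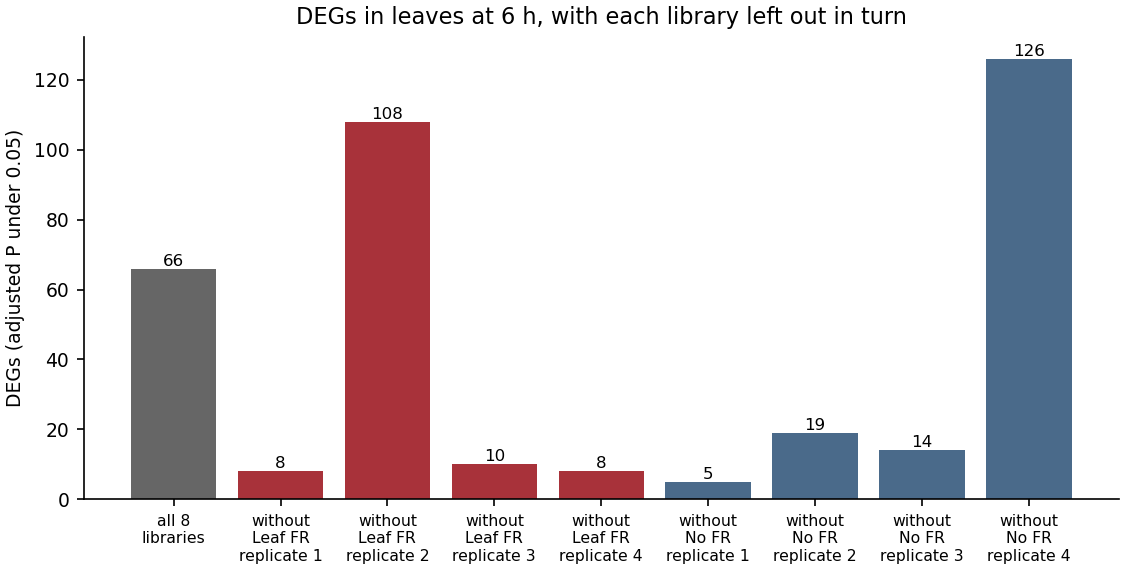
Number of DEGs in leaves at 6 h (adjusted P under 0.05) with all 8 libraries (grey, 66) and with each Leaf FR (red) or No FR (blue) library left out in turn. The count fell to between 5 and 19 in 6 cases and rose to 108 and 126 without Leaf FR replicate 2 and No FR replicate 4.

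No difference of this kind was called in leaves before the lights were changed. At 0 h, before far-red was switched on, no gene was called between plants assigned to Leaf FR and No FR (0 of 17425, 0%; 552 with an unadjusted P under 0.05, edgeR). The median Log2FC at 0 h was 0.02 for the 47 upregulated genes that could be tested there and -0.03 for the 8 downregulated genes. The change of the light response between 0 and 6 h, tested as an interaction, passed the threshold for 3 genes (0.0161% of 18625). They were Solyc01g090460 (interaction 4.66 ± 0.58 on the log2 scale, SE), Solyc05g053410 (2.88 ± 0.41) and Solyc10g085830 (1.59 ± 0.23). The last is named because the count is small, after its values were seen. Solyc01g090460 was too low to test alone at 0 h, with means of 0.31 CPM in plants assigned to Leaf FR and 0.66 CPM in No FR. Its interaction therefore rests on few counts at 0 h. This interaction uses the same leaf libraries of 6 h that made the leaf calls. On a scale set over the 16 leaf libraries of 0 and 6 h, Solyc05g053410 averaged 51.4 ± 11.3 CPM in Leaf FR and 6.31 ± 1.87 CPM in No FR at 6 h, and 5.07 ± 1.78 and 4.59 ± 1.52 CPM in the plants assigned to Leaf FR and No FR at 0 h (SD, n = 4 each). The interaction count was 0 without Leaf FR replicate 1 or 3 or No FR replicate 1, 2 or 4, it was 1 without Leaf FR replicate 4, 3 without No FR replicate 3 and 24 without Leaf FR replicate 2.

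Between 0 and 6 h the same hours also moved many genes without far-red. In No FR leaves 4571 of 17911 genes (25.5%) differed between 6 h and 0 h. This comparison shares the No FR libraries of 6 h with the light comparison, so the values are given side by side for single genes. Solyc09g074230 had a Log2FC of 2.44 in No FR leaves (6 h over 0 h, adjusted P = 0.000686) beside -1.36 for Leaf FR over No FR at 6 h. Solyc10g085830 had -3.49 in No FR leaves beside a light response of 1.64. Solyc02g073580 had -4.81 in No FR leaves beside 5.01, and its level in Leaf FR leaves at 6 h, 32.8 ± 23.9 CPM, lay near that of Leaf FR plants before treatment, 49.1 ± 19.6 CPM. Solyc05g052670 moved the same way in both, with 1.74 in No FR leaves (adjusted P = 0.0109) beside 3.73, and so did Solyc06g035530, with 2.68 (adjusted P = 0.042) beside 3.59. In SlPIN4 the No FR change was -0.47 (adjusted P = 0.293) beside 2.16.

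After the first afternoon the Log2FC values varied from gene to gene. At 12 h, at the end of the light period, with 3 Leaf FR and 4 No FR libraries, 1 gene was called in all (0.00548% of 18235), and it was an upregulated gene of 6 h, Solyc05g054750, with a Log2FC of 4.54. At 24 h 33 genes were called (0.188%), among them 12 of the 54 upregulated genes of 6 h that passed the filter on low counts and 1 of the 8 downregulated ones. At 48 h 14 genes were called (0.0795%), among them 9 of 53, and at 96 h 46 genes (0.263%), among them 17 of 55 upregulated genes and 1 of the 8 downregulated ones. The median Log2FC of the upregulated genes that passed the filter was 0.36, 0.99, 0.80 and 1.36 in the order of the 4 later times, against medians over all tested genes between -0.04 and 0.02. Each time point had its own libraries. Changes between 6 h and the later time points were not tested.

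Some genes kept the sign of their Log2FC at every later time. Solyc01g090460 had Log2FC of 3.46, 3.35, 3.69 and 5.05 at 12, 24, 48 and 96 h, and passed the threshold at 24, 48 and 96 h. Solyc06g060830 had 2.84, 3.77, 2.82 and 3.02 at the same times, and also passed at the last 3 times. Solyc03g114940 stayed lower, with -1.77, -3.41, -1.92 and -2.49, and passed at 24 h (adjusted P = 0.0083). SlPIN4 had 0.54, 1.10, 0.80 and 1.11, with an adjusted P of 0.0511 at 96 h. Solyc06g066010, at 1.89 ± 0.20 (SE) at 6 h, had -0.66 ± 0.38, -0.05 ± 0.34, -0.16 ± 0.29 and 0.14 ± 0.28 later on, and passed at none of them. The zeatin O-glucosyltransferase gene Solyc05g053400 had -0.40, -0.20, 1.32 and 1.80, also without passing, whereas its neighbour Solyc05g053410 had 2.60, 2.88, 3.37 and 3.52 and passed at 24, 48 and 96 h.

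**Figure D4:**
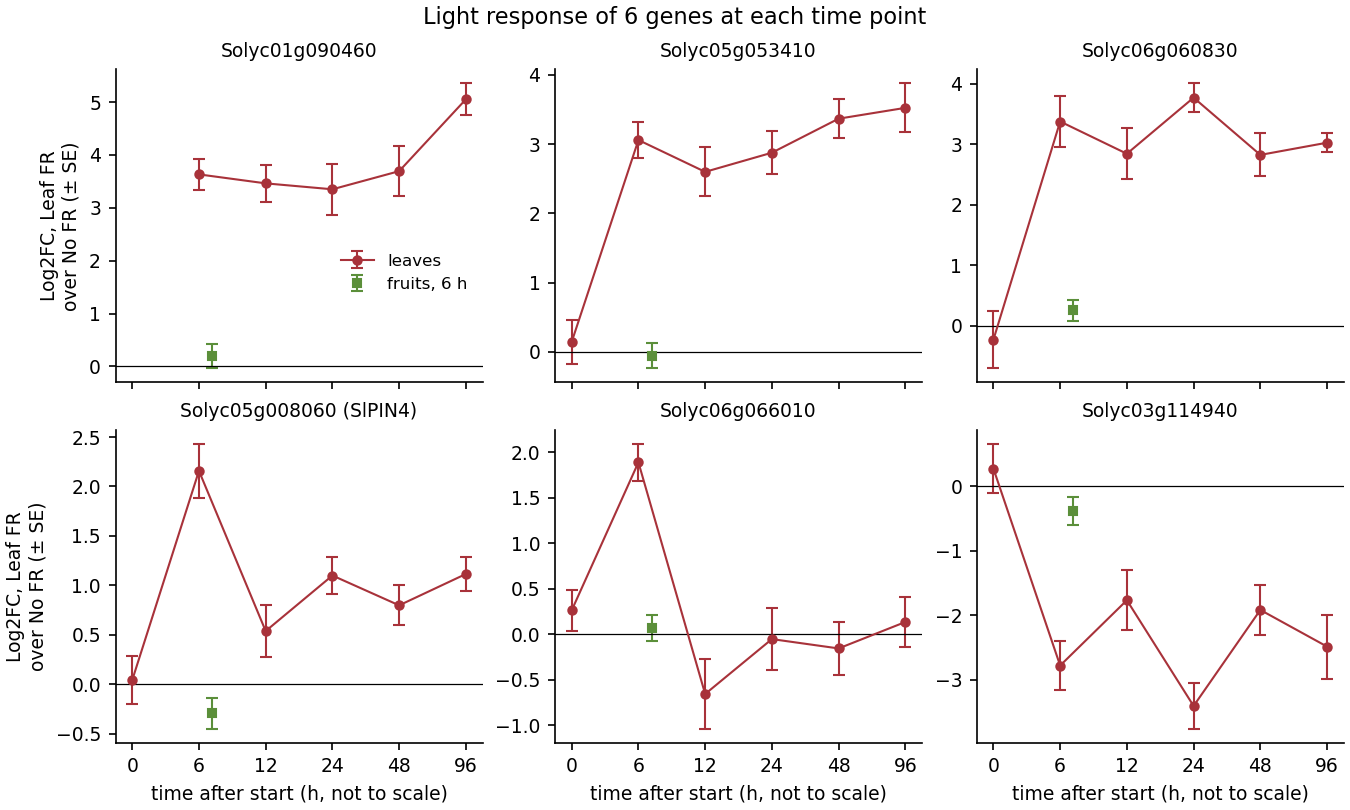
Log2FC ± SE (Leaf FR over No FR) of 6 genes in leaves at 0, 6, 12, 24, 48 and 96 h (red circles) and in fruits at 6 h (green squares); time is not to scale, and Solyc01g090460 was too low to test at 0 h. Solyc01g090460, Solyc05g053410 and Solyc06g060830 stayed above 2.5 after 6 h, SlPIN4 was highest at 6 h (2.16), and Solyc06g066010 lay between -0.66 and 0.14 after 6 h.

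Fruits of the same hour, which were shielded from the added far-red, had no DEG (0 of 18310, 0%; 619 with an unadjusted P under 0.05, edgeR). The median Log2FC in fruits was 0.06 for the 47 upregulated leaf genes that could be tested there. The light response in leaves minus that in fruits passed the threshold for 96 genes (0.485% of 19781), 86 of them with a positive difference and 10 with a negative one. The study sampled leaves and fruits of the same plants, which this fit ignores. With the plant as a block, a fit added after seeing the data, 12 genes passed, all with a positive difference, and 11 of them were among the 96. Solyc06g060830 differed by 3.11 ± 0.47 (SE, adjusted P = 0.00951), and by 3.22 ± 0.39 with the plant as a block (adjusted P = 0.0333). SlPIN4 differed by 2.45 ± 0.33 (adjusted P = 0.00351), with a Log2FC of 2.16 in leaves and -0.29 in fruits, but its adjusted P was 0.0563 with the plant as a block. Solyc03g114940 differed by -2.38 ± 0.46, with an adjusted P of 0.123 with the plant as a block. This interaction uses the same leaf libraries that made the leaf calls. Without the plant block it gave 41, 45 and 62 genes without Leaf FR replicate 4, No FR replicate 1 and No FR replicate 3, and 165 and 315 without Leaf FR replicate 2 and No FR replicate 4.

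Of the hormone and organ growth genes that the study lists, chosen there for a rise or a fall in fruits, 16 of 21 could be tested in these leaves. Only SlPIN4 passed, 1 of 16 (6.25%, against 0.365% of all genes tested), and none fell past the threshold. The list's median Log2FC was 0.42, against 0.01 over all genes tested, and 6 of the 16 (37.5%) had an unadjusted P under 0.05, all higher in Leaf FR, against 8.91% of all genes tested in either direction. CKX4, a cytokinin oxidase that breaks cytokinin down, is listed by the study as downregulated in fruits at 96 h. In these leaves CKX4 had 34.3, 15.9, 53.1 and 33.8 CPM in Leaf FR, against 13.3, 3.57, 10.6 and 8.37 CPM in No FR. The treatments did not overlap, but with a Log2FC of 1.93 ± 0.45 (SE) the adjusted P was 0.143 by edgeR and 0.00236 by DESeq2. CKX4 was already higher in the plants assigned to Leaf FR before treatment, with a Log2FC of 1.45 ± 0.56 at 0 h (adjusted P = 0.999), and the response at 6 h minus that at 0 h was 0.44 ± 0.76 (adjusted P = 1.00). In later leaves CKX4 had a Log2FC of 3.20 at 24 h and 4.08 at 96 h. Its values at 12 and 48 h are not given here, and its change after 6 h was not tested. EXPA5, an expansin that loosens cell walls, had 120.3, 113, 156 and 217 CPM in Leaf FR, against 55.0, 35.7, 75.3 and 111 CPM in No FR (Log2FC 1.13 ± 0.35, adjusted P = 0.308). Its highest No FR plant lay just below its lowest Leaf FR plant. Solyc03g006880, a gibberellin oxidase gene that the study lists under more than 1 name, overlapped between treatments, at 42.0 ± 20.2 CPM in Leaf FR and 18.7 ± 11.9 CPM in No FR (SD, adjusted P = 0.491). SlIAA19, an auxin-inducible repressor of auxin responses, had a Log2FC of 0.82 ± 0.47 (SE). ToFZY, an auxin synthesis gene of the list, had at most 1 count in a leaf library of 6 h and was not tested. SlAMI1, an amidase that the study assigns to the indole-3-acetamide pathway, had a Log2FC of -0.41 ± 0.22 (SE, adjusted P = 0.682 by edgeR).

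Of the study's carbon metabolism genes, chosen for their rise in fruits under Leaf FR, 26 of 27 could be tested in leaves and none passed the threshold by edgeR, with 2 (7.69%) at an unadjusted P under 0.05, a share near the 8.91% of all genes tested, and 1 called by DESeq2. The list's median Log2FC was -0.14. SUS1, a sucrose synthase that splits sucrose for use in sink tissue, had 29.0, 26.8, 46.9 and 54.4 CPM in Leaf FR, against 15.8, 9.61, 18.0 and 11.2 CPM in No FR. The treatments did not overlap, and the Log2FC of 1.52 ± 0.29 (SE) had an adjusted P of 0.0851 by edgeR and 0.000352 by DESeq2. At 0 h its Log2FC was 0.58 ± 0.42, and the response at 6 h minus that at 0 h was 0.92 ± 0.52 (edgeR interaction), which did not pass the threshold. LIN9, an invertase, had 0.816, 1.35, 0.912 and 6.30 CPM in Leaf FR, against 0.248, 0.275, 0.571 and 0.901 CPM in No FR, so that its Log2FC of 2.22 ± 0.78 rested mostly on replicate 4. The other 24 tested genes, mostly of glycolysis, respiration and starch synthesis, had Log2FC between -0.75 and 0.28.

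**Figure D5:**
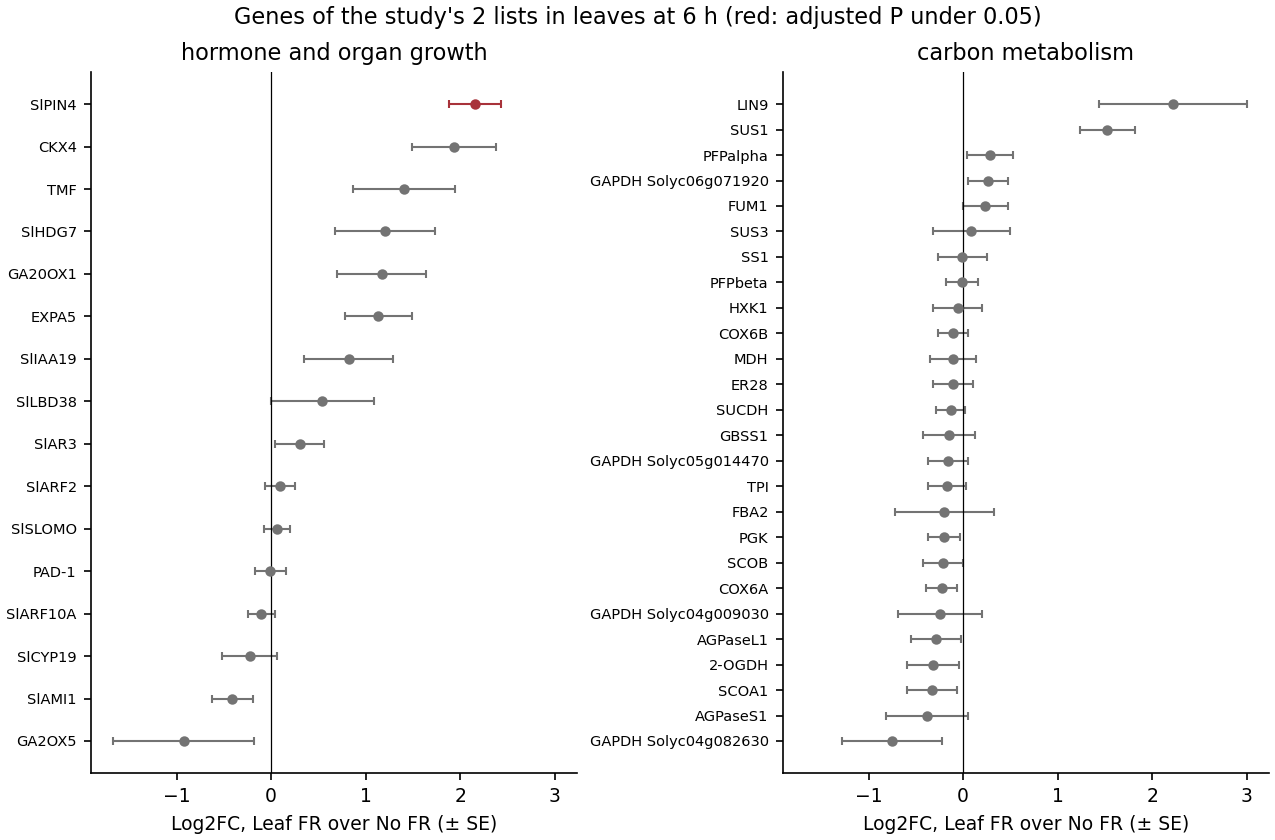
Log2FC ± SE (Leaf FR over No FR) in leaves at 6 h of the tested genes of the study's 2 lists, 16 for hormones and organ growth (left) and 26 for carbon metabolism (right). Red marks an adjusted P under 0.05, reached by SlPIN4 alone; SUS1 and LIN9 stand apart on the right, while the other carbon metabolism genes lie between -0.75 and 0.28.

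By the chromosome number in their IDs, 12 DEGs were on chromosome 6 (of 1567 genes tested there, 0.766%). Another 10 each were on chromosomes 5 and 2 (of 1202 and 1945, 0.832% and 0.514%), and none on chromosome 11 (of 1224). Of all genes tested, 0.365% were called. All 10 on chromosome 5 were upregulated, as were all DEGs on chromosomes 1 (6), 7 (3), 8 (4) and 10 (1), beside 87.9% of all DEGs. 3 pairs of DEGs were neighbours in ID order. They were Solyc05g008230 and Solyc05g008240 (Log2FC 1.52 and 5.91), Solyc05g053400 and Solyc05g053410 (2.77 and 3.06), and Solyc06g062460 and Solyc06g062480 (5.44 and 1.29). Whether neighbouring genes share reads was not tested, so their separate values are uncertain.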

How the data were processed

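RNA of 8 leaf samples at 6 h (4 Leaf FR, 4 No FR plants) was sequenced and, per the labels and the methods, the authors aligned the reads with Bowtie2 and estimated expected counts per gene with RSEM on the ITAG4.0 reference. The deposited expected counts are whole numbers and were used as they are; a table of normalized values deposited beside them was not used. Columns were assigned to samples by their names, and no column was left unassigned (0).

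The quasi-likelihood test of edgeR (version 4.0.16, run in R version 4.3.3 beside limma version 3.58.1) was applied after TMM scaling to genes reaching 10 counts in 3 or more compared libraries, with Benjamini-Hochberg adjustment and a threshold of 0.05. The standard error is the Log2FC divided by the square root of F. Differences between times or organs were tested as interactions. Leaf and fruit were taken from the same plants by the study's methods, and the library numbers of all 8 leaf and fruit pairs of 6 h follow each other. The main leaf-minus-fruit fit ignores this, and a fit with the plant as a block was added after seeing the data. Replicates were separate plants, and no 2 libraries of a group differed by less than the sampling noise (lowest chi-square per degree of freedom 16.8).

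Named genes are the DEGs without overlap between treatments that had the 12 largest or 8 smallest Log2FC, the 10 lowest P-values or the 6 highest levels, and genes that the study names. These genes and lists were chosen with earlier results of these data known. Lists of gene families and cell types were dropped because the IDs could not be matched to names. Alternatives were DESeq2 1.42.0, edgeR with the size factors of DESeq2, robust dispersion and a replicate block. Others were keeping genes of low count, 1 fit over all leaf libraries and each library left out. The study itself called its DEGs with DESeq2. The depth of 15317354 to 16756826 counts per library makes levels under 1 CPM rest on few counts.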

Additional observations from a re-analysis of the deposited data

Results flagged for a closer look

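Screening the named genes for single libraries far from the rest of their group (gap to the nearest library divided by the group's range, 4 libraries per group) singled out 6 of 62 groups, where chance gives about 1 in 20. The Leaf FR group of SlPIN4 (Solyc05g008060) gave 0.847, with 203 CPM in replicate 2 against 303 to 321 CPM in the other 3. In No FR leaves, Solyc05g052670 gave 0.899, with 3.43 CPM in replicate 2, and Solyc05g054750 gave 0.839, with 5.58 CPM in replicate 3. The other 3 groups are No FR leaves with at most 1 count per library, where the ratio only separates 0 counts from 1 count: Solyc05g008240 (1.00), Solyc01g110180 (0.964) and Solyc05g053530 (0.964).

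The light response at 6 h differed from that at 0 h in 2 named genes, by 4.66 on the log2 scale in Solyc01g090460 and by 2.88 in Solyc05g053410 (edgeR interaction). Solyc01g090460 was too low to test alone at 0 h, and the interaction uses the libraries of 6 h that made the leaf calls. No gene passed this test in 5 of the 8 fits with 1 library left out, nor with the replicate block.

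The light response in leaves differed from that in fruits of the same hour in named genes on both sides. Among genes higher in Leaf FR leaves, the difference was 6.23 on the log2 scale in Solyc01g110180, 5.46 in Solyc06g062460, 5.44 in Solyc07g053750, 5.18 in Solyc05g014710, 3.69 in Solyc03g098450, 3.44 in Solyc01g090460 and 3.29 in Solyc05g053400. It was 3.17 in Solyc06g051940, 3.11 in Solyc05g053410, 3.11 in Solyc06g060830, 2.76 in Solyc04g005800, 2.59 in Solyc02g089350 and 2.45 in SlPIN4. The smallest were 1.82 in Solyc06g066010, 1.78 in Solyc02g078760 and 1.53 in Solyc03g113280. Among genes lower in Leaf FR leaves, it was -2.38 in Solyc03g114940, -1.99 in Solyc06g008920, -1.20 in Solyc09g074230 and -1.06 in Solyc12g094380. Leaf and fruit came from the same plants, and with the plant as a block 8 of these 20 genes passed: Solyc01g110180, Solyc06g062460, Solyc05g014710, Solyc03g098450, Solyc01g090460, Solyc06g051940, Solyc05g053410 and Solyc06g060830. Genes scarcely expressed in fruits enter this test with few counts there.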

How the results depend on the processing

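All 31 named genes kept their direction under every alternative that could test them. The count of 66 DEGs became 510 with the DESeq2 Wald test and 160 with 1 fit over all leaf libraries, and lay between 5 and 126 when 1 library was left out. Upregulated genes numbered 389 and 137 in the same 2 fits (5 to 105 with 1 library left out) and downregulated genes 121 and 23 (0 to 21). DEGs with a Log2FC above 1 or below -1 numbered 357 and 126 (5 to 120). The interaction between 6 and 0 h called 149 genes with DESeq2 (0 to 24 with 1 library left out), and that between leaves and fruits 327 (41 to 315), against 96 as reported and 12 with the plant as a block. The cause was not tested. DESeq2 size factors, no filter and robust dispersion left each of these counts within 1.5 times its value.

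The design was completely randomized and gave no pairing of Leaf FR with No FR plants. The deviations of same-numbered libraries correlated at 0.39, 0.41, 0.52 and 0.01. Leaf FR replicates 1, 2 and 3 correlated best with their own number and replicate 4 with No FR replicate 2, so not every pair passed 0.1 and the replicate number was kept as an alternative only. With the replicate block 199 DEGs were called, 172 upregulated and 27 downregulated, with 157 past a Log2FC of 1 or -1, and the interactions gave 0 genes (6 minus 0 h) and 194 genes (leaves minus fruits).

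Precision is limited by the spread between plants and, for the genes close to silent in No FR leaves, by counts of 0 to 2 per library.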
